A study of Mus musculus with 4 samples.

Results

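The genes described here are the nuclear-encoded genes of oxidative phosphorylation, taken by symbol from the read count tables of single αLPs (α lymphoid progenitors). All rows starting with *Nduf* followed by a, b, c, s or v, *Uqcr*, *Cox4* to *Cox8* or *Atp5*, and the rows *Sdha*, *Sdhb*, *Sdhc* and *Sdhd*, were taken, without pseudogene rows ending in -ps. This gave 91 of 26421 rows, of which 91 were listed in experiment 1 and 90 in experiment 2. They comprised 7 core subunits, 32 accessory subunits and 8 assembly factors of complex I, 4 subunits of complex II, 8 of complex III, 15 of complex IV and 17 of ATP synthase. The 8 *Ndufaf* genes are assembly factors rather than subunits, so 83 members are left as subunits, and *Ndufa4* is counted with complex I by its symbol although its product is known from complex IV. The 11 -ps rows left out held 0.907% (experiment 1) and 0.212% (experiment 2) as many reads as the members.

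Oxidative phosphorylation couples electron transport in the inner mitochondrial membrane to the synthesis of ATP. Complexes I and II pass electrons from NADH and succinate to ubiquinone, complex III passes them to cytochrome c, complex IV reduces oxygen, and ATP synthase uses the proton gradient that results. Except for complex II, each of these machines combines subunits encoded in the nucleus with subunits encoded in mitochondrial DNA, so transcripts of both genomes can be compared in the same cells. The mitochondrially encoded mRNAs are 13 of the 35 mt- rows of the tables. Sums of mt- rows take all 35 and so are not sums of subunit genes alone. The ribosomal RNAs *mt-Rnr1* and *mt-Rnr2* held 8.854% and 6.859% of mt- reads in experiments 1 and 2.

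Cells were αLPs (Lin−CD127+FLT3−LPAM-1+) from the bone marrow of WT and G3SEKO mice, in which the tandem super-enhancers related to GATA3 are deleted. The labels give the strain C57BL/6 for experiment 1 and no strain for experiment 2, and sorting used a FACSAriaII in experiment 1 and a BD Melody in experiment 2. Cells pooled from several mice of each genotype were marked with hashtag antibodies and sequenced together by TAS-Seq on BD Rhapsody captures, so a genotype in an experiment was taken as 1 sample and n is 2 experiments, or 1 where a gate held too few cells in experiment 1. In experiment 1, 3 hashtags mark each genotype. For experiment 2, whose labels put each of its hashtags with WT and name none for G3SEKO, every G3SEKO value of that experiment rests on taking cells with the prefix A0303 as G3SEKO. With it, the gate on *Il1rl1* described below held 3370 WT and 37 G3SEKO cells in experiment 2, against 392 and 2 in experiment 1, and no genotype was taken from these numbers. After limits on reads, mitochondrial reads and *Id2* (at or above 1 in units of ln(1 + reads per 10000), with which all gates were drawn), 681 WT and 43 G3SEKO cells remained in experiment 1 and 5130 and 1159 in experiment 2. Median depths were 396198 and 509911 reads per cell in experiment 1 and 29677 and 42814 in experiment 2. The experiments shared 11 cell barcodes.

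A gate is the set of cells with a value of at least 1 for a gene on the same scale. *Zbtb16* encodes PLZF of ILC precursors, *Icos* a costimulatory receptor, *Il1rl1* the IL-33 receptor chain ST2 of ILC2s, *Ccr6* a chemokine receptor of LTi cells and ILC3s, *Eomes* a transcription factor of NK cells, and *Mki67* the proliferation antigen Ki-67. Gates overlap: 289 of the 407 WT cells of the *Icos* gate in experiment 1 were also in the *Il1rl1* gate. For the comparisons, 4 gates without shared cells were used: *Zbtb16* without *Il1rl1*, *Icos* without *Zbtb16* and *Il1rl1*, *Il1rl1* without *Zbtb16*, all without *Mki67*, and *Mki67*. Marker sums here and below leave out the genes of these 4 gates, whose levels the gates fix. The other 4 ILCP markers (*Pdcd1*, *Tox*, *Tox2*, *Il18r1*) summed to 2146 and 2100.1 CPM (reads per 1000000 reads on genes) in the WT *Zbtb16* gate of experiments 1 and 2, against 191 and 122 CPM in the *Il1rl1* gate, and the other 5 ILC2 markers to 1344 and 1479 CPM against 2671 and 2549 CPM. The presence of *Id2* in every gate was fixed by the limit on cells, and that of *Il7r* follows the sort on its product CD127, so neither checks the identity of the cells. The 6 erythroid and 6 myeloid markers summed to at most 43.5 and 16.1 CPM in any gate, the 7 T lineage markers to at most 60.1 CPM and the 6 B lineage markers to at most 95.8 CPM.

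The members made up between 8755 and 16766 CPM of a gate's reads. In WT cells their summed level had the same order in both experiments, with the *Mki67* gate highest at 16766 and 12957 CPM (experiments 1 and 2), followed by the *Icos* gate at 13614 and 9836 CPM, the *Zbtb16* gate at 13119 and 9552 CPM and the *Il1rl1* gate at 11720 and 8755 CPM. Within experiment 1 the hashtags, which were sequenced together and are not replicates, give values beside this order. The 3 WT hashtags ranged from 12846 to 13231 CPM in the *Zbtb16* gate, from 12578 to 14472 CPM in the *Icos* gate and from 11544 to 12006 CPM in the *Il1rl1* gate. Over these hashtags the *Zbtb16* and *Icos* gates overlapped and the *Il1rl1* gate lay below both. CPM are shares of a gate's reads and do not measure RNA per cell.

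**Figure D1:**
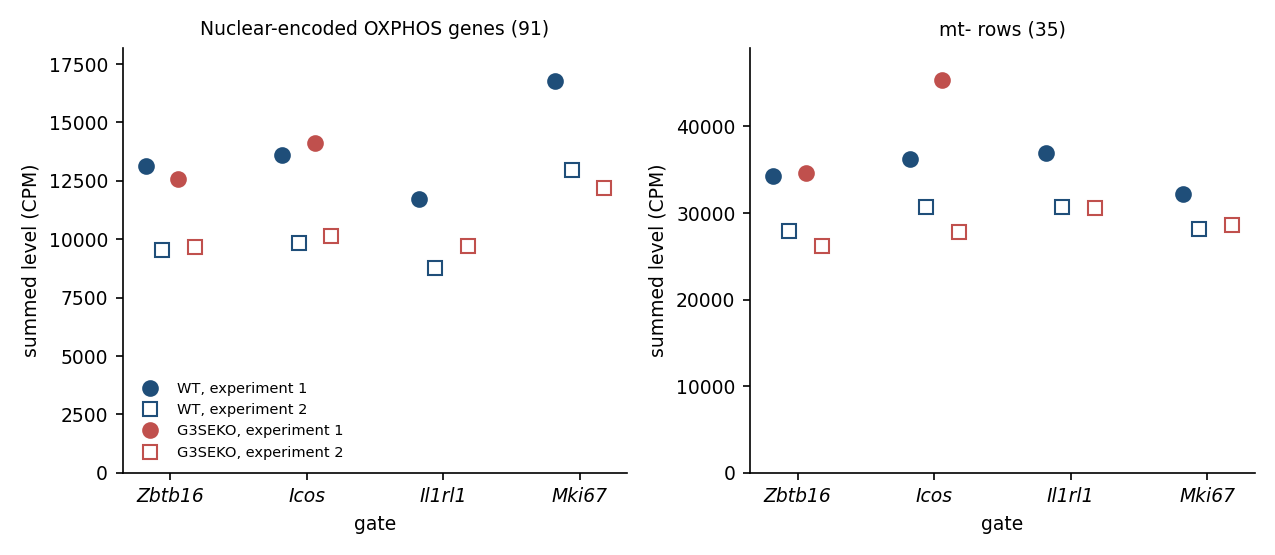
Summed level (CPM) of the 91 nuclear-encoded genes (left) and of the 35 mt- rows (right) in the gates without shared cells; filled circles are experiment 1 and open squares experiment 2, WT in blue and G3SEKO in red, and each point is the sum over all cells of a gate, with no point below 5 cells. The nuclear-encoded genes stood highest in the *Mki67* gate of WT cells in both experiments (16766 and 12957 CPM), where the mt- rows stood below those of the *Il1rl1* gate.

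In the overlapping gates as the rule gives them, summed levels in WT cells of experiments 1 and 2 were 12951 and 9295 CPM (*Zbtb16*), 12258 and 9271 CPM (*Icos*), 11787 and 8797 CPM (*Il1rl1*) and 14548 and 9588 CPM (*Eomes*, 25 and 28 cells). The median over cells, in reads per 10000, was 126 and 90.7 in the *Zbtb16* gate, 118 and 87.5 in the *Icos* gate, 115 and 84.8 in the *Il1rl1* gate, 142 and 95.2 in the *Eomes* gate and 142 and 123 in the *Mki67* gate. In G3SEKO cells the sums were 12588 and 9726 CPM (*Zbtb16*), 12437 and 10106 CPM (*Icos*) and 12353 and 11309 CPM (*Eomes*, 5 and 43 cells). The *Ccr6* gate held enough cells in experiment 2 only, with 10189 CPM in 39 WT cells and 10390 CPM in 109 G3SEKO cells. Each gate with a value in both experiments was lower in experiment 2.

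The mt- rows took a different order. Their sums in the WT *Zbtb16*, *Icos*, *Il1rl1* and *Mki67* gates without shared cells were 34239, 36187, 36899 and 32164 CPM in experiment 1 and 27945, 30644, 30727 and 28138 CPM in experiment 2. The ratio of mt- reads to member reads was therefore lowest in the *Mki67* gate, at 1.92 and 2.17, and highest in the *Il1rl1* gate, at 3.15 and 3.51. Cell by cell the levels of the gene groups were barely related: over the 12 combinations of gate, genotype and experiment with at least 20 cells, Spearman's rho between members and mt- rows lay between -0.272 and 0.122, across cells that share a library and a total.

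With complex I divided into core subunits, accessory subunits and assembly factors, the ATP synthase genes summed highest in WT cells, from 3522 to 5364 CPM in experiment 1 and from 2672 to 4342 CPM in experiment 2 over the 4 gates. Accessory subunits of complex I followed with 3152 to 4432 and 2019 to 3223 CPM, and complex IV with 2628 to 3732 and 1867 to 2474 CPM. The 4 subunits of complex II, the succinate dehydrogenase that also works in the TCA cycle, summed to 379 to 562 and 470 to 663 CPM. Divided by the median length of their transcripts, the highest levels in all WT cells of experiment 1 were those of *Atp5e*, *Uqcrh* and *Cox4i1*, and in experiment 2 those of *Cox4i1* (679 CPM per kb), *Uqcrh* (518) and *Cox7a2l* (427).

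Among paralogues of complex IV subunits, the isoforms known from muscle or testis stood far below the others. *Cox6a1* stood at 375 and 276 CPM per kb in all WT cells of experiments 1 and 2, against 0.915 and 0 for the muscle isoform *Cox6a2*. *Cox6b1* stood at 425 and 231 CPM per kb, against 16.1 and 2.52 for *Cox6b2*, known from testis. *Cox7a2* stood at 232 and 111 and the related *Cox7a2l* at 335 and 427 CPM per kb, against 1.20 and 0.444 for the muscle isoform *Cox7a1*. The 3 genes for the c subunit of the ATP synthase rotor were all present, *Atp5g2* at 245 and 223, *Atp5g3* at 231 and 180 and *Atp5g1* at 53.8 and 48.7 CPM per kb. *Cox4i2*, *Cox8b* and *Ndufa4l2* were not among the 91 rows, so no level is given for them. The rows *Cox6a2*, *Cox6c2* and *Ndufs6b* did not pass the filter on low counts in any comparison, which left 88 members tested, or 87 in the comparison of genotypes in the *Icos* gate, where *Cox7a1* also failed it.

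The lower level of the members in experiment 2 followed the length of their transcripts. Of the 84 members with a length and at least 10 CPM, 64 were lower in experiment 2. The median log2 ratio of experiment 2 to experiment 1 in all WT cells was -1.22 for the 27 members under 600 bases, -0.52 for the 26 members from 600 to 1000 bases, -0.03 for 22 members from 1000 to 2000 bases and -0.07 for 9 longer ones. Other genes of the same classes had medians of -0.87 (133 genes), -0.09 (580), 0.02 (2104) and 0.13 (5846). *Atp5k*, a small ATP synthase subunit with the shortest transcripts among these members (321.5 bases), fell from 81.4 to 4.67 CPM between the experiments. Spearman's rho with length was 0.673 over the members and 0.225 over 8663 other genes, a description across genes, which are not independent. Levels of short members are therefore compared only within an experiment.

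**Figure D2:**
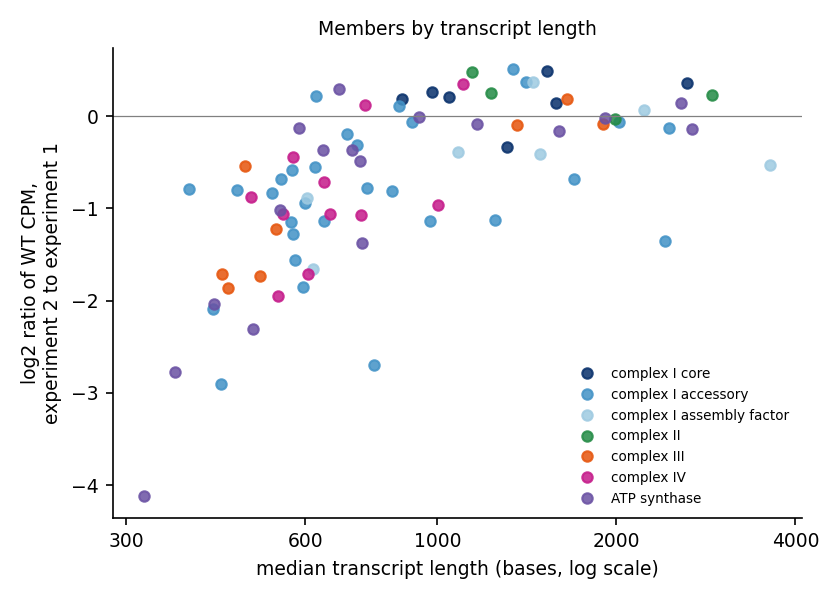
Each point is 1 of 84 members; the horizontal axis is the median length of its coding transcripts in bases (log scale) and the vertical axis the log2 ratio of its CPM in all WT cells, experiment 2 to experiment 1, coloured by complex. Members under 600 bases lay lowest (median -1.22), and members over 1000 bases lay around 0.

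The first comparison asks how the genes differ between WT cells of the precursor gate and of the ST2 gate. The summed members were lower in the *Il1rl1* gate than in the *Zbtb16* gate by 0.16 on the log2 scale in experiment 1 and 0.13 in experiment 2, a mean log2 ratio of -0.14 ± 0.03 (SD, n = 2), while the mt- rows were higher by 0.11 and 0.14 (0.12 ± 0.02). Both differences were larger than their spread between the experiments. Of the 13 mitochondrially encoded mRNAs, 12 had a positive fitted fold change, against 51.2% of all genes tested. EdgeR and DESeq2 called 0 of them, and 2 (*mt-Co1* and *mt-Nd2*) were higher at an unadjusted p below 0.05, against 5.05% of all genes. Ribosomal protein genes, which share the same total, took 177708 and 147445 CPM in the *Il1rl1* gate against 158545 and 114890 CPM in the *Zbtb16* gate, and without them and the mt- rows the mean ratio of the members was -0.09 ± 0.04. Cells of the *Il1rl1* gate were less deep, with medians of 366301 and 30924 reads against 657629 and 48465, and with all cells thinned to the same number of reads the ratio was -0.10 ± 0.01.

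Member by member, edgeR's quasi-likelihood test (Benjamini-Hochberg adjusted p below 0.05) called 0 of 88 members in this comparison, against 0.145% of all 19294 genes tested (7 higher and 21 lower). At an unadjusted p below 0.05, 1 member was higher and 6 were lower, 7 in all, against 5.05% and 5.03% of all genes. DESeq2 called 0 members higher and 3 lower, *Uqcrq*, *Cox5a* and *Cox6b2*, against 3.16% and 3.87% of all genes (610 higher and 747 lower). In both experiments, 17 members were higher and 48 lower, against 30.9% and 32.7% of all genes. The median fold change of the members was -0.12 on the log2 scale, against 0.02 for all genes tested. It was -0.27 for the 7 core subunits of complex I, which carry its electron transfer centres, -0.13 for ATP synthase, -0.15 for complex III, -0.11 for complex IV, -0.08 for accessory subunits of complex I, -0.32 for its assembly factors and 0.12 for complex II. In thinned cells the median of the members was 0.00, with 43 of 87 positive, against 0.04 and 53.1% for all genes. With 2 experiments, the absence of calls by edgeR in any comparison here does not show that the members were alike.

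*Uqcrq*, a small subunit of complex III on chromosome 11 (53427922 to 53430831, GRCm38, minus strand), stood out from the rest of its complex. It is named for its change in the comparison with *Mki67* below and was chosen here after its values were seen. In the WT *Zbtb16*, *Icos*, *Il1rl1* and *Mki67* gates its level was 329.6, 301.8, 92.9 and 237 CPM in experiment 1, and it was 156, 105, 34.5 and 176 CPM in experiment 2. The *Il1rl1* gate was thus lowest in each experiment, and it was so on every WT hashtag of experiment 1, where it ranged from 80.9 to 104.7 CPM against 275.3 to 450.2 CPM in the *Zbtb16* gate. From the *Zbtb16* to the *Il1rl1* gate the fitted log2 fold change was -1.96 ± 0.29 (SE), with an adjusted p of 0.096 in edgeR and 1.6e-05 in DESeq2, and over all alternatives the adjusted p ranged from 1.6e-05 to 0.487. The other 7 members of complex III had fold changes between -0.25 and 0.08, with *Uqcrc1*, a core protein of the complex, at 0.02 and *Uqcrfs1*, the Rieske iron-sulfur protein, at -0.11.

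The share of cells with a *Uqcrq* read was 92.8% of 97 cells in the *Zbtb16* gate and 63.0% of 392 cells in the *Il1rl1* gate of experiment 1, and 59.4% of 229 and 15.8% of 3370 cells in experiment 2. After each cell was thinned to the same number of reads these shares were 60.8% and 21.4% in experiment 1 and 41.0% and 8.43% in experiment 2. In the other gates the shares did not always follow the levels. In experiment 2 the *Mki67* gate had a lower share than the *Zbtb16* gate (55.1%, and 32.1% thinned) at a higher level, and in experiment 1 a higher share than the *Icos* gate (100% against 75.3%, and 58.3% against 45.7% thinned) at a lower one. All cells respire, so no cell type of these data should lack the gene and no background share can be given. In G3SEKO cells of experiment 2 the *Il1rl1* gate was again lowest, with 46.0 CPM against 114.0 CPM in the *Zbtb16* and 128 CPM in the *Icos* gate. In experiment 1 the G3SEKO *Zbtb16* and *Icos* gates stood at 277 and 124 CPM.

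*Cox5a*, a nuclear-encoded subunit of complex IV, had the next lowest p of the members in DESeq2 after *Uqcrq*. It stood at 287, 204, 148 and 385 CPM in the WT *Zbtb16*, *Icos*, *Il1rl1* and *Mki67* gates of experiment 1 and at 183, 156, 109.9 and 233 CPM in experiment 2, with the *Il1rl1* gate lowest and the *Mki67* gate highest each time. Its fold change from the *Zbtb16* to the *Il1rl1* gate was -0.81 ± 0.18 (edgeR adjusted p = 0.207, and 0.0032 to 0.670 over the alternatives). *Atp5a1*, the α subunit of the catalytic head of ATP synthase, stood at 510 CPM in the *Zbtb16* gate and 369 CPM in the *Il1rl1* gate of experiment 1, and at 597 and 416 CPM in experiment 2, with a fold change of -0.46 ± 0.13. *Atp5g3* and *Ndufb2*, an accessory subunit of complex I, the latter chosen after its values were seen, had fold changes of -0.53 ± 0.18 and -0.69 ± 0.28. The WT hashtags of experiment 1 did not overlap between these gates for *Cox5a* (257 to 333 against 114 to 169 CPM) or *Atp5a1* (484 to 535 against 332 to 420 CPM), but did for *Atp5g3* (123 to 293 against 101.1 to 180 CPM).

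In the other direction, *Cox7a2l* stood at 327 and 312.9 CPM in the *Zbtb16* gate and at 406 and 503.7 CPM in the *Il1rl1* gate of experiments 1 and 2, a fold change of 0.53 ± 0.17 (edgeR adjusted p = 0.363). The gates did not overlap over the experiments, and neither did they over the 3 WT hashtags of experiment 1 (282 to 354 against 361 to 434 CPM). *Cox6b2* stood at 14.5 and 1.88 CPM (*Zbtb16* and *Il1rl1* gates) in experiment 1, with 2.06 and 0.854 CPM in the second experiment. In the *Zbtb16* gate of experiment 1 its hashtags stood at 16.5, 27.1 and 0.109 CPM, so they overlapped those of the *Il1rl1* gate (0.401 to 4.80 CPM). The largest fitted change, -3.06 ± 2.08 for *Cox7a1*, rests on at most 1.40 CPM in any WT gate.

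**Figure D3:**
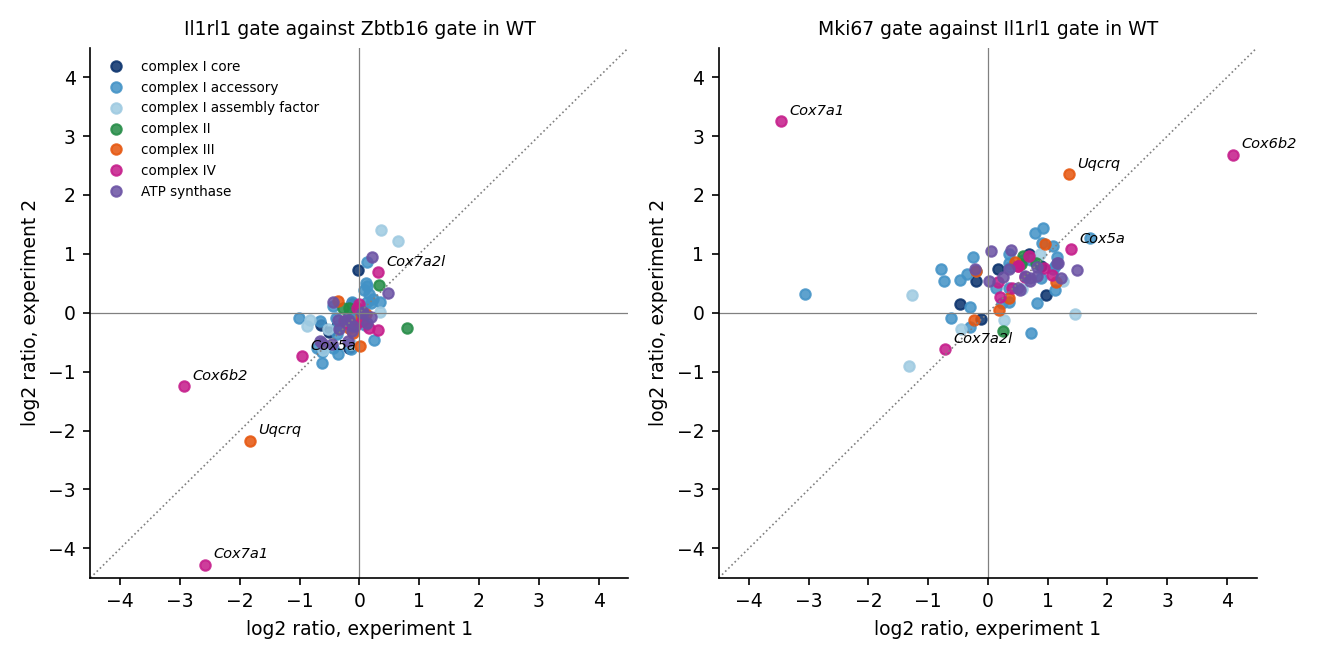
Log2 ratio of each member in experiment 1 (horizontal) and experiment 2 (vertical), coloured by complex, for the *Il1rl1* against the *Zbtb16* gate (left) and the *Mki67* against the *Il1rl1* gate (right) in WT cells; the dotted line marks equal ratios. Most members lay near 0 on the left, with *Uqcrq* apart at -1.83 and -2.17 beside *Cox7a1* and *Cox6b2* of low level, and 63 of 88 lay above 0 in both experiments on the right.

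Other mitochondrial and metabolic lists were read beside the members in the same fit, in which 5.05% of all genes were higher and 5.03% lower at an unadjusted p below 0.05 and DESeq2 called 3.16% and 3.87%. The 78 genes of the mitochondrial ribosome had a median of -0.05 with 1 lower at an unadjusted p below 0.05, and the 16 genes of the TCA cycle and pyruvate dehydrogenase a median of -0.07 with 0. The 18 glycolysis genes had a median of -0.24, with 3 higher and 5 lower at an unadjusted p below 0.05. The 17 carriers outside the symbol rule, such as enzymes of ubiquinone synthesis, had a median of 0.04 with 1 gene lower, cytochrome c (*Cycs*, -0.93 ± 0.23), and 13 regulators, among them *Nrf1*, *Gabpa*, *Ppargc1a* and *Tfam*, a median of 0.03 with 0. The 14 factors for complex IV and supercomplexes had a median of -0.17 with 1 higher. In all these lists edgeR called 0 genes, and DESeq2 called 1 glycolysis gene higher and 2 lower, 1 gene each of the mitochondrial ribosome and the carriers lower, and 1 complex IV factor in each direction.

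The second comparison sets proliferating WT cells against the *Il1rl1* gate, whose sums it shares with the first. The summed members were higher in the *Mki67* gate by 0.52 and 0.57 on the log2 scale (mean 0.54 ± 0.03 SD, n = 2), and the mt- rows were lower by 0.20 and 0.13 (mean -0.16 ± 0.05). The *Mki67* gate held 12 cells in experiment 1 and 78 in experiment 2. Apart from *Mki67*, on which the gate was drawn, the 5 proliferation markers summed to 1089.9 and 3201 CPM, against 103 and 137 CPM in the *Il1rl1* gate. The 4 ILCP markers were also higher there, at 675 and 457 CPM against 191 and 122 CPM, and the 5 ILC2 markers lower, at 2016 and 1799 against 2671 and 2549 CPM. The part of these cells in the values below was not tested. Its cells were deeper, with medians of 839574 and 73867 reads against 366301 and 30924, and its ribosomal protein genes were lower, at 134003 and 99036 CPM against 177708 and 147445. With every cell thinned to the same number of reads the ratio of the members was 0.38 ± 0.04, as a mean over cells 0.42 ± 0.03, and without mt- and ribosomal protein rows 0.45 ± 0.03.

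By gene, edgeR again called 0 of 88 members, against 0.145% of 19294 genes (28 higher and 0 lower). At an unadjusted p below 0.05, however, 43 members were higher and 1 was lower, against 7.02% and 9.01% of all genes, and DESeq2 called 45 members higher and 0 lower, against 7.36% and 5.04% (1420 higher and 972 lower). A positive fold change was found for 76 of 88 members, against 39.8% of all genes, and 63 were higher and 7 lower in both experiments, against 19.6% and 41.6% of all genes. The median of the members was 0.66 and that of all genes -0.28 on the log2 scale, and in the DESeq2 fit 0.77 and -0.15. All genes thus shifted by more than 0.1 between the fits, which differ in scaling and in model, and the members lay above them under each. All genes were not matched to the members in level. Without the low-count filter the medians were 0.67 for the members and -0.49 for all genes. Thinning the cells left 58 of 87 members with a positive fold change (41.8% of all genes) and a median of 0.24, against -0.17 for all genes. At an unadjusted p below 0.05, 14 members were then higher and 2 lower, against 7.17% and 9.60% of all 11061 genes tested. Thinning set the reads per cell alone, so the sums still differed in depth with their numbers of cells.

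Positive fold changes, which 39.8% of all genes had, were found in every complex. All 17 ATP synthase genes had positive fold changes, 13 of them at an unadjusted p below 0.05, with a median of 0.67. For complex IV 12 of 13 were positive (8 higher and 1 lower at that p, median 0.69), for complex III 7 of 8 (4 higher, median 0.53), for complex II 4 of 4 (2 higher, median 0.78), for the core of complex I 5 of 7 (3 higher, median 0.50) and for its accessory subunits 26 of 31 (13 higher, median 0.56). The 8 assembly factors of complex I had a median of 0.34 with 0 called by edgeR, 0 at that p and 2 called by DESeq2. Of the 13 mitochondrially encoded mRNAs, 3 were positive, 4 were lower at that p (*mt-Nd5*, *mt-Co1*, *mt-Nd4* and *mt-Nd2*) and 0 were called by edgeR or DESeq2, and their median of -0.23 was near that of all genes (-0.28).

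**Figure D4:**
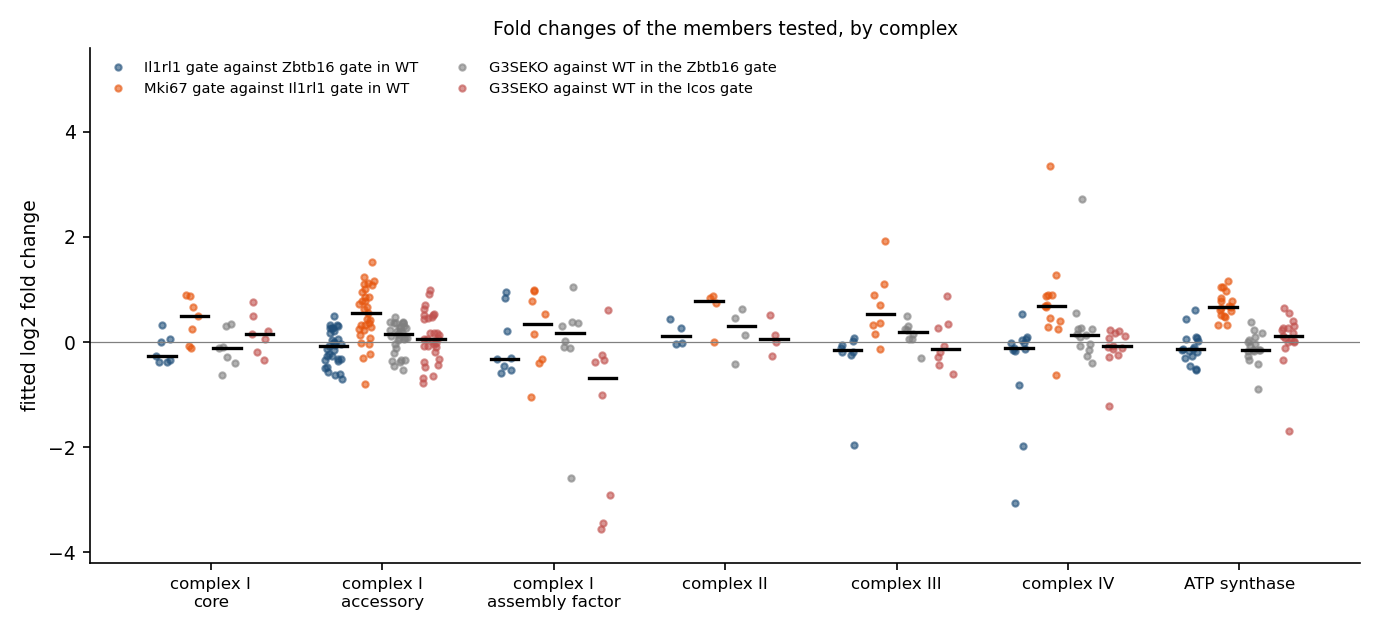
Fitted log2 fold changes of the members tested, by complex, in the 4 comparisons named in the key; each point is 1 gene and black bars are medians. In the *Mki67* comparison (orange) the medians lay between 0.34 and 0.78, and in the others between -0.69 and 0.30.

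*Cox5a* had the lowest p of the members, with a fold change of 1.28 ± 0.19 (edgeR adjusted p = 0.080, and 1.2e-08 to 0.247 over the alternatives, where the lowest is DESeq2 and 0.036 was reached without the *Id2* limit). *Uqcrq* followed at 1.92 ± 0.29 (edgeR adjusted p = 0.085, and 5.7e-06 to 0.337 over the alternatives). Relative to the *Zbtb16* gate, to which the *Mki67* gate was not compared by a test, *Uqcrq* in the *Mki67* gate stood lower in experiment 1 (237 against 329.6 CPM) and higher in experiment 2 (176 against 156 CPM). Next came *Ndufc2*, an accessory subunit of complex I, at 88.7 and 36.1 CPM in the *Il1rl1* gate and 288 and 87.6 CPM in the *Mki67* gate of experiments 1 and 2 (fold change 1.52 ± 0.24), and *Atp5g3*, which is also named as a paralogue, at 136 and 120.0 against 306.2 and 216 CPM (1.05 ± 0.18). *Atp5pb*, in the stalk of ATP synthase, and *Ndufab1*, the mitochondrial acyl carrier protein, had fold changes of 1.05 ± 0.19 and 1.16 ± 0.22. *Ndufc2*, *Atp5pb* and *Ndufab1* were chosen after their values were seen, as those with the lowest p-values after *Cox5a* and *Uqcrq*.

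Among the genes named by their role or as paralogues, *Atp5a1* and *Atp5b*, the catalytic head of ATP synthase, had fold changes of 0.69 ± 0.13 and 0.66 ± 0.14. *Cox5b*, *Cox8a* and *Cox6a1* of complex IV stood at 0.89 ± 0.17, 0.70 ± 0.15 and 0.87 ± 0.24, and *Cox4i1*, the most abundant by length in experiment 2, at 0.28 ± 0.13. Of complex I by symbol, *Ndufa4* had 1.09 ± 0.21, *Ndufv1*, which binds NADH, 0.89 ± 0.25, and *Uqcrfs1* of complex III 0.89 ± 0.25. Of complex II, *Sdhb* and *Sdhd* had 0.87 ± 0.30 and 0.74 ± 0.23. *Sdha* stood at 167 and 218 CPM in the *Il1rl1* gate and 199 and 177 CPM in the *Mki67* gate, *Sdhc* at 42.6 and 43.8 against 64.1 and 85.3 CPM, *Ndufs1*, a core subunit of complex I, at 45.7 and 58.4 against 39.9 and 85.1 CPM, and *Uqcrc1* at 153 and 162 against 196 and 193 CPM. For the genes from *Atp5a1* to *Sdhd* named here, the edgeR adjusted p was at least 0.108. The paralogues *Cox7a2* and *Cox7a2l* pointed in opposite directions, at 0.69 ± 0.18 and -0.62 ± 0.17: *Cox7a2l* stood at 406 and 503.7 CPM in the *Il1rl1* gate and 248 and 328 CPM in the *Mki67* gate, and it was the 1 member lower at an unadjusted p below 0.05. *Cox6b2* had the largest fold change, 3.35 ± 0.76, from 1.88 and 0.854 to 32.5 and 5.65 CPM, with a read in 16.7% of the 12 cells of experiment 1.

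**Figure D5:**
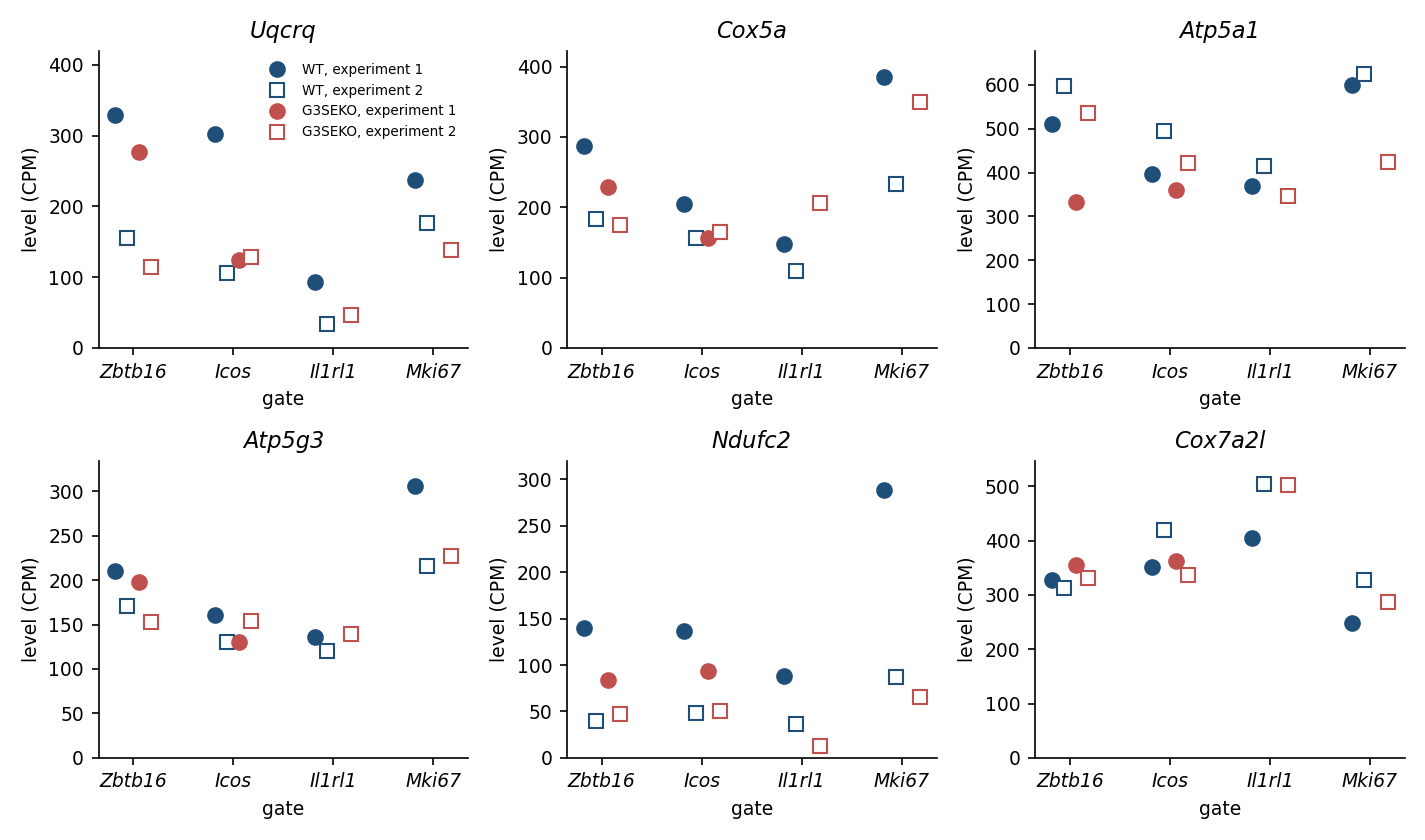
Level (CPM) of 6 members in the gates without shared cells; filled circles are experiment 1 and open squares experiment 2, WT in blue and G3SEKO in red, each point 1 sum over cells. In WT cells *Uqcrq* and *Cox5a* were lowest in the *Il1rl1* gate (92.9 and 34.5, and 148 and 109.9 CPM), where *Cox7a2l* was highest (406 and 503.7 CPM).

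The lists beside the members also had medians above that of all genes (-0.28) in this comparison, in which 7.02% of all genes were higher and 9.01% lower at an unadjusted p below 0.05 and DESeq2 called 7.36% and 5.04%. Glycolysis had a median of 0.37, with 8 higher and 2 lower at an unadjusted p below 0.05 and 12 of 18 positive. The TCA cycle list had 0.27 (3 higher), the carriers 0.27 (4 higher, with *Cycs* at 1.30 ± 0.23), the mitochondrial ribosome 0.21 (11 higher and 1 lower), the complex IV factors 0.16 (2 higher and 2 lower) and the regulators -0.07 with 0. EdgeR called 0 genes of these lists. DESeq2 called 7 glycolysis genes higher and 1 lower, 11 of the mitochondrial ribosome higher and 1 lower, 4 carriers and 1 TCA cycle gene higher, 2 complex IV factors in each direction and 0 regulators.

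The start regions of the members were read for short motifs of factors known to act at respiratory genes, chiefly NRF1 and the ETS factor GABP. Of the 91 members, 74 matched an entry in the RefSeq promoter table (GRCm38.p6), and the 250 bases before each start were searched on both strands. The core of the NRF1 site (GCATGCGC, a near palindrome, so that a hit on either strand can overlap one on the other) was present before 9 members (12.2%), against 3.32% of 17492 protein-coding genes. The core of the ETS site bound by GABP (CCGGAAG) was present before 14 (18.9%, against 10.2%), the CCAAT box (CCAAT) before 33 (44.6%, against 39.5%) and the YY1 motif (AAGATGGC) before 1 (1.35%, against 1.77%). Among the 39 members with an entry that were higher in the *Mki67* gate at an unadjusted p below 0.05, 5 held the NRF1 core (12.8%) and 7 the ETS core (17.9%). Among the other 35, 4 (11.4%) and 7 (20%) did. A match is a description of letters, not a site in use.

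Regions are printed below for members of the *Mki67* comparison whose window lies outside the annotated transcript: *Cox5a* (chr9:57520982-57521231, plus strand) and *Ndufc2* (chr7:97399753-97400002, plus strand), with the lowest and the third-lowest p and neither the NRF1 nor the ETS core, *Ndufa11* (chr17:56717512-56717761, plus strand), an accessory subunit of complex I that holds the NRF1 core, and *Ndufb6* (chr4:40279422-40279671, minus strand), also of complex I, and *Sdhd* (chr9:50603850-50604099, minus strand), a membrane anchor of complex II, which hold the ETS core. Capitals mark the NRF1 or ETS core on either strand, and each line runs 5′ to 3′ on the strand of the gene and ends at the base before its start.
Cox5a: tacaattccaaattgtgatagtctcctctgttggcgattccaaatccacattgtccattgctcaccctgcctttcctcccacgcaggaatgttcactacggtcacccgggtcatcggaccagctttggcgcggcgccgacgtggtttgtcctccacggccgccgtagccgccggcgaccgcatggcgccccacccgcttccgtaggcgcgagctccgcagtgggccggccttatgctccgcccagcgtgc
Ndufc2: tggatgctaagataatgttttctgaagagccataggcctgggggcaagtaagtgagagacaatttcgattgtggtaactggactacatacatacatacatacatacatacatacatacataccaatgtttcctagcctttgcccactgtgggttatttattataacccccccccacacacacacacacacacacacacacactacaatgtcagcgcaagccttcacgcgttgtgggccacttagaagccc
Ndufa11: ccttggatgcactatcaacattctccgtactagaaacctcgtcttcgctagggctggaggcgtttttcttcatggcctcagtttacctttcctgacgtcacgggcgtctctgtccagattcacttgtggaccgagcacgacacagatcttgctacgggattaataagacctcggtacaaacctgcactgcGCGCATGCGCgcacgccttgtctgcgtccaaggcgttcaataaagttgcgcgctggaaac
Ndufb6: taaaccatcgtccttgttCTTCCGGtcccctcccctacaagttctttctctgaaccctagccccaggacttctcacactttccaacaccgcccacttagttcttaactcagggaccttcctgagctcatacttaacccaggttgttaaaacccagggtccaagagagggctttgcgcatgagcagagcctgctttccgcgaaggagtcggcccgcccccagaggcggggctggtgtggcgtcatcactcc
Sdhd: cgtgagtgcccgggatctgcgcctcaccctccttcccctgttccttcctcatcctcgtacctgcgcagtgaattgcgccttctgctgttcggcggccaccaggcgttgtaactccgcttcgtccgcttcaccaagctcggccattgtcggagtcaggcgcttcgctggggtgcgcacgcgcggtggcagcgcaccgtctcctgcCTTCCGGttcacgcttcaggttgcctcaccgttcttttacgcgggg
The fold changes of *Ndufa11* and *Ndufb6* in the *Mki67* gate were 1.12 ± 0.24 and 1.24 ± 0.24, beside 0.74 ± 0.23 for *Sdhd* and 1.28 ± 0.19 and 1.52 ± 0.24 for *Cox5a* and *Ndufc2*, whose windows hold neither core. These windows were picked by p-value and by motif, so they cannot show whether a core goes with the fold change, which was not tested.

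The third question is whether the members differ between G3SEKO and WT cells. *Gata3*, the gene the deleted super-enhancers are named for, stood at 834 and 762 CPM in the WT *Zbtb16* gate against 881 and 494 CPM in G3SEKO (experiments 1 and 2). In the *Icos* gate it stood at 1175 and 1003 CPM against 507 and 451 CPM, and in the *Il1rl1* gate of experiment 2 at 1047 against 209 CPM. The difference was -1.12 ± 0.24 in the *Icos* gate and -0.23 ± 0.23 in the *Zbtb16* gate on the log2 scale, and edgeR called neither. The deletion lies outside the gene body, so its level is no direct check of the genotype.

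The ratios of the summed members between genotypes were small, and those of experiment 2 rest on the assignment of A0303 cells given above. In the *Zbtb16* gate they stood at 13119 and 9552 CPM in WT (97 and 229 cells) and 12588 and 9671 CPM in G3SEKO (20 and 371 cells), a mean log2 ratio of -0.02 ± 0.05 (SD, n = 2). Its sign turned with the experiment and with the way of summing, to 0.03 in thinned cells and to 0.01 as a mean over cells. In the *Icos* gate they stood at 13614 and 9836 CPM in WT (81 and 544 cells) and 14117 and 10133 CPM in G3SEKO (7 and 321 cells), a mean ratio of 0.05 ± 0.01 that became -0.02 ± 0.01 without mt- and ribosomal protein rows and -0.01 ± 0.02 with *Mki67*-positive cells kept in. Ribosomal protein genes were lower in G3SEKO, at 115174 and 95517 CPM against 160474 and 133873 CPM in this gate. The mt- rows of the *Icos* gate gave opposite ratios, with 45346 against 36187 CPM in experiment 1 and 27811 against 30644 CPM in experiment 2.

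In the *Il1rl1* gate only experiment 2 allows a value, since 2 G3SEKO cells of experiment 1 entered it. There the members stood at 9722 CPM in 37 G3SEKO cells against 8755 CPM in 3370 WT cells, a log2 ratio of 0.15 with no replicate, and of 0.06 without mt- and ribosomal protein rows. In the *Mki67* gate of experiment 2 they stood at 12185 CPM in 35 G3SEKO cells and 12957 CPM in 78 WT cells. The mt- rows stood at 30548 and 30727 CPM in the former gate and 28628 and 28138 CPM in the latter.

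In the *Icos* gate the sums of ILCP and of LTi/ILC3 markers were higher in G3SEKO in both experiments, with 7 G3SEKO cells in experiment 1. The 4 ILCP markers summed to 1955 and 1723 CPM in G3SEKO against 1069 and 530.0 CPM in WT, and 4 LTi/ILC3 markers (*Ccr6*, *Il23r*, *Cxcr5* and *Lta*) to 424 and 235 against 48.3 and 44.9 CPM. In the *Zbtb16* gate the former stood at 2733 and 2286 against 2146 and 2100.1 CPM and the latter at 174 and 243 against 271 and 253 CPM. The 6 NK/ILC1 markers gave 42.4 and 318 CPM in the G3SEKO *Icos* gate and 336 and 37.1 CPM in WT, in no common direction. The part of these markers in the values of the members was not tested.

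No member passed a test of genotype. In the *Zbtb16* gate edgeR called 0 of 88 members, 0 of them at an unadjusted p below 0.05 (against 1.8% of 16563 genes), DESeq2 called 0 (against 0.157%), and edgeR called 0% of all genes. In both experiments 28 members were higher and 23 lower in G3SEKO, against 21.8% and 28.5% of all genes, and the median was 0.08 against -0.05 for all genes. In the *Icos* gate edgeR called 0 of 87 and 0% of all genes, with 0 members at an unadjusted p below 0.05 (against 2.38% of 16124 genes), and DESeq2 called 0 (against 0.49%). There 23 members were higher and 19 lower in both experiments, against 21.1% and 31.1%, with a median of 0.03 against -0.20. These sums hold as few as 7 cells, so the absence of calls does not show that the genotypes are alike.

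By complex, medians in the *Zbtb16* gate ran from -0.15 (ATP synthase, 6 of 17 positive) to 0.30 (complex II, 3 of 4 positive), with complex III at 0.19 and complex IV at 0.14. In the *Icos* gate ATP synthase had 0.12 (14 of 17 positive), complex III -0.13 and complex IV -0.08. The assembly factors of complex I had -0.69, with 1 of 8 positive. The 13 mitochondrially encoded mRNAs had medians of 0.00 in the *Zbtb16* gate and 0.18 in the *Icos* gate, and 0 of them were called by edgeR or DESeq2 or had an unadjusted p below 0.05 in edgeR in either.

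The largest fold changes by genotype belonged to genes of low level. *Cox7a1* stood at 1.40 and 0.756 CPM in the WT *Zbtb16* gate and at 13.5 and 3.13 CPM in G3SEKO, a fold change of 2.71 ± 1.02 (edgeR adjusted p = 0.9998, and 0.591 to 1 over the alternatives), with a read in 10% of 20 G3SEKO and 3.09% of 97 WT cells in experiment 1 and in 2.70% of 371 and 1.31% of 229 cells in experiment 2. *Ndufaf6*, an assembly factor of complex I, stood at 22.1 and 15.0 CPM in WT and 0.656 and 11.9 CPM in G3SEKO (-2.59 ± 1.73). In the *Icos* gate *Ndufaf3* stood at 44.1 and 34.5 CPM in WT and 0 and 45.2 CPM in G3SEKO, so the experiments pointed in opposite directions, and *Ndufaf1* stood at 28.9 and 37.2 CPM in WT and 0.167 and 25.8 CPM in G3SEKO (-3.44 ± 2.39). The zero comes from 7 cells.

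The difference between the genotype differences of the *Icos* and *Zbtb16* gates was tested after the data had been seen, on 8 sums, since the *Il1rl1* gate could not enter. EdgeR called 0 of 88 members and 0% of 18037 genes, with 0 members at an unadjusted p below 0.05 (against 1.92% of all genes). *Cox8a* of complex IV, like *Ndufv1* noticed in these values, was higher in G3SEKO in the *Zbtb16* gate of both experiments (415 and 167 against 313.7 and 162 CPM) and lower in the *Icos* gate of both (276 and 169 against 343 and 179 CPM). *Ndufv1* showed the same pattern (62.2 and 76.3 against 47.5 and 69.4 CPM, then 67.5 and 89.7 against 85.3 and 100.4 CPM). Neither difference passed the test (edgeR unadjusted p 0.23 and 0.335, lowest adjusted p of any member 0.969). The share of members or of all genes with this pattern was not counted, so no more is read from it.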

How the data were processed

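The authors sequenced TAS-Seq libraries of BD Rhapsody captures, trimmed reads with Cutadapt, mapped them with Bowtie2 to GRCm38 (Ensembl) transcripts and separated cells from background with DropletUtils; the labels also name Seurat 4.0 and mm10. The deposited values are raw read counts for each gene in each cell, without collapsing molecules, so intervals over reads would be too narrow and none is given. Genotype was taken from the hashtag in the cell name. Cells were kept within the study's lower limits on reads per cell, with at most 10% mitochondrial reads and *Id2* of at least 1. Counts were summed over the cells of a gate, genotype and experiment (at least 5 cells) and given as CPM. Pooled mice and hashtags are not replicates, so p-values measure the spread between 2 experiments. EdgeR 4.0.16 (R 4.3.3; TMM, filterByExpr, quasi-likelihood test, experiment as a block, Benjamini-Hochberg over all genes, adjusted p below 0.05) gave the tests, and DESeq2 1.42.0 the alternative. The edgeR fit was tested on simulated data and the DESeq2 fit was not. Per-experiment log2 ratios of genes had 2 reads added. Sums and figures were made with Python 3.11.15, numpy 2.4.6, pandas 2.3.3, scipy 1.17.1 and matplotlib 3.10.9. The block pairs gates and genotypes of the same experiment, as the labels give it. Doublets were limited to cells with a single hashtag. Positions and lengths came from GENCODE annotation of the same build, which is not the annotation the authors counted on. Strand use in counting is not given in the sources used here.

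The members and lists were chosen with earlier results of these data known. A gene of the LTi/ILC3 marker list is not reported here and was left out of its sum. Named genes were members called and of like sign in the experiments (at most 5 a direction), paralogue groups, subunits chosen by role, and the 2 members of largest fold change in each comparison; others are said to be chosen after their values were seen. Alternatives changed the test, low-count filter, block, *Id2* and mitochondrial limits, gate threshold (0.5 and 2), *Mki67*-positive cells, depth, hashtag rule, totals, summing, members and experiments.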

Additional observations from a re-analysis of the deposited data

How the results depend on the processing

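No member passed the edgeR threshold in any comparison as reported. DESeq2 called 3 members in the *Il1rl1* against *Zbtb16* comparison and 45 in the *Mki67* against *Il1rl1* comparison, thinned cells 1 and 1, and the fit without the *Id2* limit 1 in the latter. Over all genes, edgeR called 7 higher and 21 lower in the former and 28 higher and 0 lower in the latter, DESeq2 610 and 747, and 1420 and 972, and edgeR on thinned cells 350 and 322, and 222 and 155. Without the replicate block, which pairs the groups by experiment, 0 members were called in each of the 4 comparisons, and members at an unadjusted p below 0.05 were 1 lower in place of 1 higher and 6 lower (all genes 3.93% higher and 4.36% lower), and 20 higher and 1 lower in place of 43 and 1 (6.5% and 7.25%), in the WT comparisons. In thinned cells they were 4 and 2 (8.39% and 7.20%), and 14 and 2 (7.17% and 9.60%). The summed ratio of *Il1rl1* to *Zbtb16* gates became -0.17 without the *Id2* limit, -0.10 thinned, -0.094 without mt- and ribosomal protein rows and -0.12 as a mean over cells, with a range of -0.16 to -0.13 when an experiment was left out. For *Mki67* it became 0.49 and 0.58 at thresholds of 0.5 and 2, 0.38 thinned, 0.45 without those rows and 0.42 as a mean over cells (0.52 to 0.57 by experiment). For genotype in the *Zbtb16* gate it turned to 0.0304 thinned and 0.0095 as a mean over cells (-0.0596 to 0.0179 by experiment), and its mt- ratio to 0.0167 in experiment 1 alone. In the *Icos* gate it became 0.0227 and 0.0171 at thresholds of 0.5 and 2, -0.0067 with *Mki67*-positive cells, 0.0899 thinned, -0.0188 without those rows and 0.0717 as a mean over cells (0.043 to 0.0523 by experiment). There the mt- ratio was 0.3255 in experiment 1 alone and turned to -0.14 in experiment 2 alone, -0.0622 at the threshold of 2, -0.0406 thinned and -0.04 as a mean over cells. The median of the members turned to -0.0447 without the low-count filter, -0.0061 at the threshold of 2, -0.0424 with *Mki67*-positive cells and -0.21 thinned. In these settings the median of all genes was -0.34, -0.21, -0.24 and -0.24. *Ndufaf3*, at -9.12 in experiment 1 alone, turned to 0.39 in experiment 2 alone. In the *Il1rl1* gate the genotype ratio became 0.12 at the threshold of 0.5, 0.22 thinned, 0.0629 without those rows and 0.2217 as a mean over cells. Without mt- and ribosomal protein rows, gate levels averaged over experiments rose to 13265 (*Icos*) and 12847 CPM (*Il1rl1*) in WT and to 13266 (*Zbtb16*), 13201 (*Icos*) and 14431 CPM (*Eomes*) in G3SEKO. The causes were not tested. Of the other values under an alternative, 157 that answer a comparison stayed like the reported ones, as did 467 others, with 25 newly past the threshold and 17 moved. Like means, for sums, medians and gate levels, a distance below the SD between experiments where 2 gave one. For counts it means a like number, and for single genes the same sign and call. The hashtag rule could change nothing, since 100% of kept cells matched it.

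With 1 experiment left out no test is possible, so those settings give values only. The genotype fit in the *Il1rl1* gate and its planned interaction could not be fitted, since experiment 1 has 2 G3SEKO cells there. The fit over several gates used sums of at least 5 cells. The smallest sums held 7 cells (*Icos* gate, G3SEKO) and 12 cells (*Mki67* gate, WT), both in experiment 1.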

Other observations

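The neighbours of *Uqcrq* on chromosome 11 were read after its values had been seen, as values only. Within 300000 bases lie the type 2 cytokine genes *Il4*, *Il13* and *Il5*. In WT cells *Il4* stood at 1.29 and 1.65 CPM in the *Zbtb16* gate and at 44.2 and 31.3 CPM in the *Il1rl1* gate of experiments 1 and 2, where *Uqcrq* was lowest. The fitted log2 fold changes of *Il4*, *Il13* and *Il5* from the *Zbtb16* to the *Il1rl1* gate were 4.81 ± 0.91, 6.01 ± 2.57 and 3.60 ± 2.22 (SE). Those of *Il13* and *Il5* rest on low levels. *Il13* stood at 0.026 and 1.37 CPM in the *Zbtb16* gate against 7.39 and 3.45 CPM in the *Il1rl1* gate, and *Il5* at 0.551 and 0.275 against 5.78 and 4.56 CPM. Nearer genes pointed in both directions, with *Aff4* at 0.73 ± 0.20, *Zcchc10* at 0.98 ± 0.25, *Hspa4* at 0.20 ± 0.18, *Kif3a* at -0.78 ± 0.37 and *Shroom1* at -3.65 ± 0.92. *Gdf9*, the nearest at 192 bases, had 1.03 ± 2.26 at low levels (2.31 and 0 against 0.559 and 0.223 CPM). *Rad50*, also within 300000 bases, had 0.49 ± 0.29. EdgeR's quasi-likelihood test called none of these genes, and any relation between them was not tested.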
